A study of Mus musculus with 12 samples.

Results

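The genes described here are 9 apolipoprotein genes (Apob, Apoa1, Apoa2, Apoc3, Apoa4, Apoa5, Apoe, Apom and Apoh) and Lpl, which encodes lipoprotein lipase, in livers of mice that lack Fah. They were taken by symbol, as every probe set annotated to only 1 of these 10 genes: 16 of 22626 probe sets on the 430A array and 18 of 45037 on the 430 2.0 array. All 16 and all 18 were bright enough to be tested. Tyrosine is broken down by a chain of enzymes that ends with the product of Fah; the drug NTBC stops this chain at an earlier step, so that a Fah knockout stays well while it is given. The series asked how liver expression changes once the drug is withdrawn, with or without p21, a cell cycle inhibitor encoded by Cdkn1a. RNA came from whole liver tissue of adult mice 10 weeks old.

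The normal group on 430A held 4 livers of 4 conditions: a wildtype on water (normal 1), a wildtype on NTBC (normal 2), a Fah knockout on NTBC (normal 3) and a Fah p21 knockout on NTBC (normal 4). In Fah off there were 3 Fah knockout livers, taken 14 days after NTBC was stopped, and in Fah p21 off there were 2 livers of mice without Fah and p21 after the same 14 days. On 430 2.0 there were 2 more livers of the Fah p21 off kind (numbers 3 and 4) and 1 normal liver, a Fah p21 knockout on NTBC that carries the number 4. By their titles the arrays are biological replicates. The labels state neither strain nor sex, nor whether both arrays numbered normal 4 come from 1 mouse. As the normal group has 1 liver for each condition, its spread mixes genotype, drug and individual.

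Apolipoproteins are the protein part of lipoproteins, the particles that carry fat and cholesterol in blood, and the liver makes most of them. ApoB is the scaffold of very low density lipoprotein, and ApoA1 and ApoA2 are the main proteins of high density lipoprotein; the smaller, exchangeable ones steer what happens to a particle in plasma. Lipoprotein lipase splits the triglyceride of circulating particles so that tissues can take up the fatty acids; it is known from fat, muscle and macrophages, and the adult liver normally makes little of it.

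The signal of Fah was 6868 and 7120 in the wildtype livers and lay between 100.8 and 233 in the 7 knockout livers on 430A. One Cdkn1a probe set read 8.2 to 14.7 in the 3 p21 knockout livers on 430A and 989.5 to 1862 in Fah off. The other Cdkn1a probe set read 1828 and 2060 in Fah p21 off; the labels do not say which part of Cdkn1a is deleted. Markers of hepatocytes were bright in every liver, with summed signals of 12 genes between 142958 and 152239 in the normal livers, 80407 and 88361 in Fah off and 78988 and 83096 in Fah p21 off. All 12 passed as lower in both comparisons with the normal livers, with a median log2 change of -0.75 and -0.82, and 7 and 5 of them after quantile normalization. In tissue RNA, fewer cells of a type and less RNA per cell cannot be told apart. Each array had been scaled to about the same trimmed mean signal (347.5 to 348.8), but its upper end differed by group: the highest signal was 19864 to 22298 in the normal livers, 13876 to 15650 in Fah off and 12852 to 13482 in Fah p21 off. Of the 16 member probe sets on 430A, 10 were among the brightest 1% of those tested (153 probe sets). The other 143 bright probe sets had a median log2 change of -0.31 in Fah off and -0.46 in Fah p21 off, against 0.02 and 0.11 over all probe sets. Each apolipoprotein change on 430A against the normal livers is therefore given also after quantile normalization, which gives all arrays the same distribution of signals; the part of the upper end in these changes was not tested further.

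Lpl was higher in every liver off NTBC than in every normal liver, and the 6 apolipoprotein genes Apoa1, Apoa2, Apoc3, Apoa5, Apoe and Apoh were lower in every liver off NTBC than in every normal one. With the arrays as deposited, Lpl rose and 7 apolipoprotein genes fell in Fah off (limma, adjusted p under 0.05), and Lpl rose and 6 fell in Fah p21 off; after quantile normalization Lpl still rose in both comparisons, and the falls of Apoc3 and Apoa5 alone of the members still passed, while Apoa1 had changes just above 0. As background, 36.2% of 9195 genes passed in Fah off (19.7% higher and 16.5% lower) and 29.4% in Fah p21 off (17.8% higher and 11.5% lower), each gene read by its probe set of highest mean signal. After quantile normalization 3459 and 2780 of the 9195 genes passed, and 49.5% and 50.2% of those were higher. The 2 falls that still passed among the 10 members are therefore near the share of all genes. The median log2 change of the 10 genes was -0.51 in Fah off and -0.66 in Fah p21 off, where the median over all genes was 0.00 and 0.09. The hepatocyte markers, none of them a member, moved with the apolipoproteins and had lower medians; their part in the falls was not tested. Groups did not overlap for Lpl above and 6 genes below in Fah off, where 22.9% of all genes lay wholly above and 20.4% wholly below, and for Lpl above and 8 genes below in Fah p21 off, where these shares were 28.2% and 19.9%. The plot of signal by liver shows each value.

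**Figure D1:**
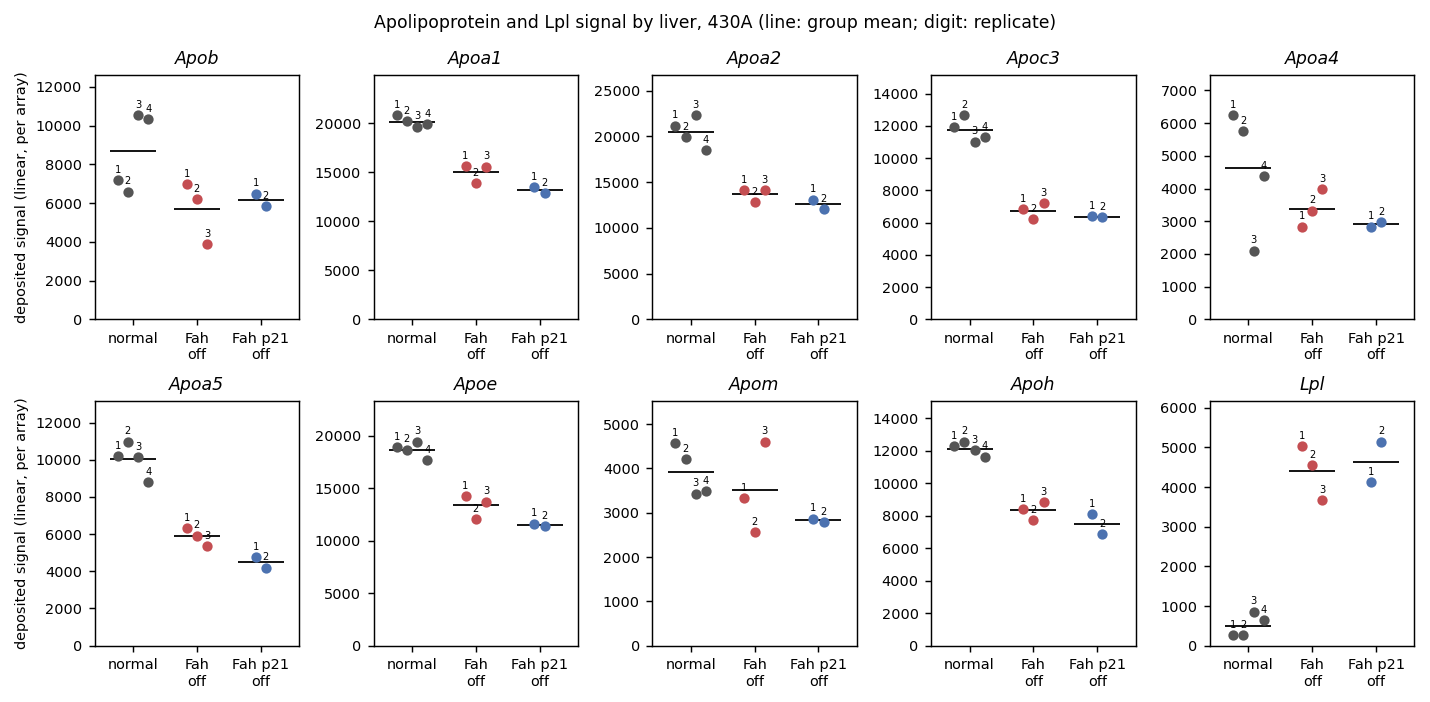
Deposited signal (linear scale, in arbitrary units scaled per array) of the representative probe set of each gene in the 9 livers on 430A; points are livers with their replicate number, lines are group means, and each panel has its own axis from 0. Lpl lies between 258.2 and 857.4 in the normal livers and between 3673 and 5144 off NTBC, while Apoa1, Apoa2, Apoc3, Apoa5, Apoe and Apoh are lower in all 5 livers off NTBC; after quantile normalization the change of Apoa1 is just above 0.

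Among the genes of the particle scaffolds, Apob, whose product carries triglyceride out of the liver in very low density lipoprotein, varied with the normal liver it was read in. Its signal was 7207 and 6594 in the wildtype livers (normal 1 and 2), 10532 and 10354 in the knockouts on NTBC (normal 3 and 4), 6991, 6205 and 3874 in Fah off and 6490 and 5856 in Fah p21 off. The wildtype livers lay in or just above the range of the livers off NTBC, the knockouts on NTBC lay above all others, and Fah off 3 lay below all others. In Fah off Apob fell by 0.62 ± 0.22 on the log2 scale (SE; limma, adjusted p = 0.0467), with overlapping groups. This call was lost without Fah off 2 (-0.70), without Fah off 3 (-0.36), and without normal 3 or normal 4 (each -0.52), and after quantile normalization the change was -0.27. In Fah p21 off the change of -0.46 ± 0.25 did not pass (adjusted p = 0.199), and it was 0.05 after quantile normalization; with a common median it passed (-0.70). With the wildtype livers alone as control the changes were -0.32 and -0.16 and did not pass, and with the knockouts on NTBC alone they were -0.92 and -0.76 and passed.

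Apoa1 encodes the main protein of high density lipoprotein. Its representative probe set read 20795, 20224, 19635 and 19864 in normal 1 to 4, then 15625, 13876 and 15577 in Fah off and 13482 and 12852 in Fah p21 off. The normal livers lay close together and above all livers off NTBC. As deposited, Apoa1 fell by 0.42 ± 0.079 in Fah off (adjusted p = 0.00166) to 74.6% of the normal mean, and by 0.61 ± 0.089 in Fah p21 off (adjusted p = 0.000515). All 4 probe sets passed in the same direction, and their log2 values over the 9 arrays correlated at 0.979 or more. After quantile normalization the change was 0.03 and 0.04, and at a common 99th percentile -0.11 and -0.18; it passed in neither comparison under these scalings.

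Apoa2, which shares high density lipoprotein with Apoa1, read 21181, 19886, 22298 and 18489 in the normal livers, 14132, 12830 and 14145 in Fah off and 13089 and 12047 in Fah p21 off. No liver off NTBC reached the lowest normal liver. The fall was 0.58 ± 0.090 in Fah off (adjusted p = 0.000546) and 0.70 ± 0.10 in Fah p21 off (adjusted p = 0.000517) as deposited. After quantile normalization the changes were -0.10 and -0.06 and did not pass.

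Among the genes whose products act on lipase activity, Apoc3, an inhibitor of lipoprotein lipase and of particle uptake, was lower off NTBC under each of 4 scalings. It read 11911, 12660, 11035 and 11314 in the normal livers, 6854, 6199 and 7198 in Fah off and 6385 and 6366 in Fah p21 off. The livers off NTBC lay far below the normal ones and near each other. Apoc3 fell by 0.80 ± 0.092 in Fah off (adjusted p = 6.9e-05), to 57.5% of the normal mean, and by 0.88 ± 0.10 in Fah p21 off (adjusted p = 0.000145). After quantile normalization it was still lower by a log2 change of -0.43 in Fah off and -0.36 in Fah p21 off, and passed in both.

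Apoa5, whose product promotes the lipase and is made almost only in liver, was the member with the largest fall in Fah p21 off. It read 10172, 10971, 10120 and 8792 in the normal livers, 6341, 5922 and 5352 in Fah off and 4766 and 4193 in Fah p21 off. The 3 groups did not overlap: the normal livers were highest and the Fah p21 off livers lowest. The log2 change was -0.77 ± 0.11 in Fah off (adjusted p = 0.00027) and -1.16 ± 0.12 in Fah p21 off (adjusted p = 6.6e-05). It was -0.42 and -0.71 after quantile normalization, and passed in both.

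Apoa4, made in intestine and, in mice, in liver, differed more among the normal livers than between groups. Its representative probe set read 6236, 5749, 2102 and 4385 in normal 1 to 4, then 2838, 3323 and 3978 in Fah off and 2835 and 2975 in Fah p21 off. The wildtype livers were highest, and the Fah knockout on NTBC lay below all 5 livers off NTBC. The second probe set repeated that order for normal 3, with 4787, 4184, 765.4 and 2810 in the normal livers and 2000 to 3116 in the livers off NTBC. Neither change passed: -0.35 ± 0.31 in Fah off (adjusted p = 0.412) and -0.55 ± 0.35 in Fah p21 off (adjusted p = 0.274), or -0.17 and -0.29 after quantile normalization. The call depended on the control: without normal 3, Apoa4 was lower and passed in both comparisons (-0.69 and -0.89), as it was against the wildtype livers alone (-0.84 and -1.04), and against the knockouts on NTBC it was 0.14 and -0.06 and passed in neither. Against the liver of the same genotype on NTBC it was 0.67 in Fah off and -0.59 in Fah p21 off, each against a single array, so that these are values without a test. Of 4 intestine markers tested, 2 rose and none fell in each comparison. The sums of 8 genes were 1402 to 1910 (normal), 1976 to 2588 (Fah off) and 1959 to 4063 (Fah p21 off). The brightest of them was Fabp2, at 1103 to 1652, 1556 to 2083 and 1242 to 3305 in the same order. Tff3 read 76.5 to 136.3, 236.2 to 289.7 and 446.2 to 454.7. Vil1, Cdx1, Cdx2 and Reg3g read 68.2 or less in every liver. The part of intestine markers in the level of Apoa4 was not tested.

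Apoa1, Apoc3, Apoa4 and Apoa5 are neighbours on mouse chromosome 9, with no other protein-coding gene between them in the RefSeq annotation. RefSeq windows before the start site (assembly GRCm38.p6) were found for 8 of the 10 genes, but not for Apoc3 and Lpl. Those of the other 3 of these neighbours are shown. Apoc3, without a window, lies between Apoa1 and Apoa4. Whether the changes of these neighbours differ from each other was not tested. Each window is the 250 bases before the start site on the plus strand, Apoa1 at chr9:46228380-46228629, Apoa4 at chr9:46240594-46240843 and Apoa5 at chr9:46268358-46268607. Capitals mark matches, searched on both strands, to any of 4 motifs: the TATA box, with the letters TATAAA, the E-box, with the letters CACGTG, the core of the HNF4 site, with the letters CAAAGNNCA, and the nuclear receptor half-site, with the letters AGGTCA.
Apoa1: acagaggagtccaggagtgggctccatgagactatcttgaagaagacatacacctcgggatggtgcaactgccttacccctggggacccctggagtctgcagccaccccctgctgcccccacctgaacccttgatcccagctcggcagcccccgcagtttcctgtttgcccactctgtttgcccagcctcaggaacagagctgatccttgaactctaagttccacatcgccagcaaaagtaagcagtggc
Apoa4: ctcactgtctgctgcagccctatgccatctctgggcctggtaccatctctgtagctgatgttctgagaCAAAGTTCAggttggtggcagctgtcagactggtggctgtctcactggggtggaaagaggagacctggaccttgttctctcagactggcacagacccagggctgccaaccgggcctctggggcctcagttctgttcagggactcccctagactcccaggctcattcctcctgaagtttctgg
Apoa5: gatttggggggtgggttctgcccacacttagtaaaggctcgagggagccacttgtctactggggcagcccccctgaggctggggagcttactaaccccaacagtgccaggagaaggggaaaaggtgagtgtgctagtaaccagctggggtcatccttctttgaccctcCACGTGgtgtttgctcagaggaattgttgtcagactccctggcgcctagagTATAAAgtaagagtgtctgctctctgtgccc
The Apoa5 window held the E-box at position -82 and the TATA box at -31, the Apoa4 window held the HNF4 core at -182 and the Apoa1 window held none of the motifs, with positions counted to the start site from the leftmost base of a match. No match overlapped another in these windows. Of 32851 RefSeq windows of the same length, 12.4% held the TATA box, 6.02% the E-box, 5.49% the HNF4 core and 14% the half-site. A match is a description of letters and says nothing on whether a factor binds.

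Apoe encodes the ligand by which remnant particles are taken up through the LDL receptor family. It read 18888, 18680, 19430 and 17648 in the normal livers, 14280, 12051 and 13722 in Fah off and 11616 and 11365 in Fah p21 off. Every liver off NTBC was below every normal liver, and the Fah p21 off livers were lowest. The fall was 0.49 ± 0.086 in Fah off (adjusted p = 0.00118) and 0.70 ± 0.097 in Fah p21 off (adjusted p = 0.000388) as deposited, and the changes after quantile normalization were -0.06 and -0.07 and did not pass.

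Apoh encodes a plasma protein that binds anionic phospholipids. Its signals were 12269, 12557, 12041 and 11637 in the normal livers, 8392, 7750 and 8834 in Fah off and 8105 and 6872 in Fah p21 off, again without overlap with the normal livers. Apoh fell by 0.54 ± 0.093 in Fah off (adjusted p = 0.000966) and by 0.70 ± 0.11 in Fah p21 off (adjusted p = 0.000619). After quantile normalization -0.15 and -0.13 remained, and neither passed.

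Apom, whose product carries sphingosine 1-phosphate on high density lipoprotein, passed in no comparison with all 9 arrays in the fit. It read 4573, 4203, 3431 and 3491 in the normal livers, 3335, 2565 and 4603 in Fah off and 2866 and 2794 in Fah p21 off. Fah off 3 was the highest of all 9 livers, and the other livers off NTBC lay below the normal ones. The log2 change was -0.19 ± 0.18 in Fah off (adjusted p = 0.442), and its sign turned without Fah off 2 (0.01). In Fah p21 off it was -0.46 ± 0.21 (adjusted p = 0.124), and it passed there with only the normal and Fah p21 off livers in the fit (-0.46 ± 0.15, limma, adjusted p = 0.0481). After quantile normalization the changes were -0.03 and -0.19 and did not pass. With the wildtype livers alone as control they were -0.365 and -0.63, and with the knockouts on NTBC alone -0.02 and -0.29. None of these passed.

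**Figure D2:**
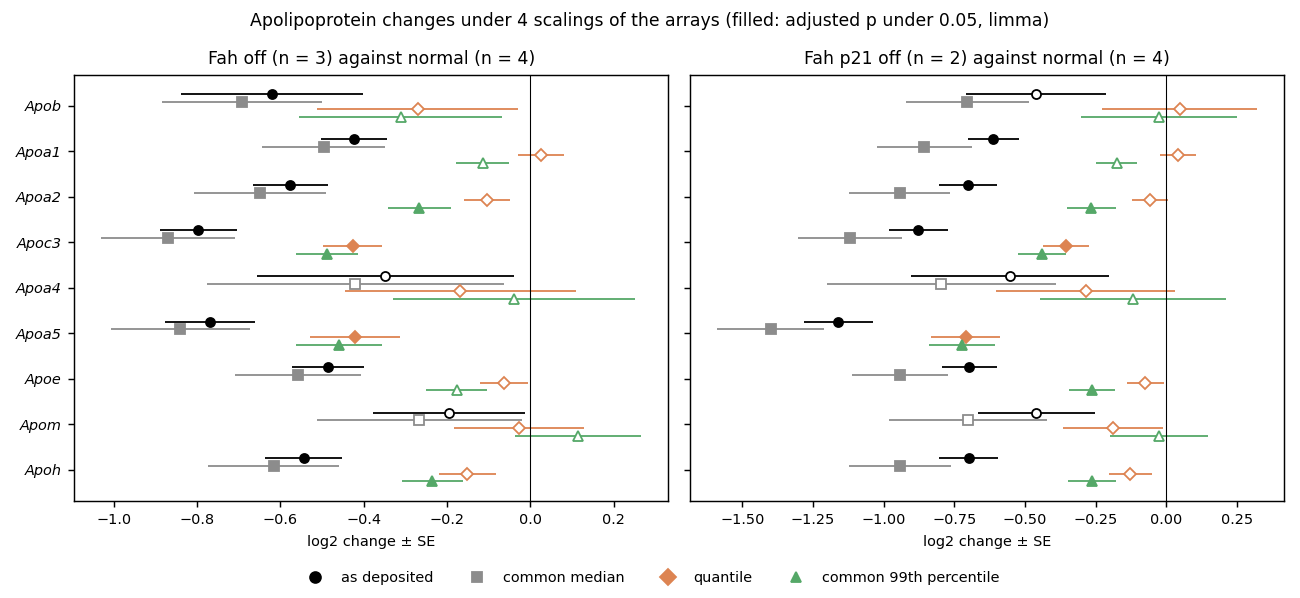
Log2 change ± SE of the 9 apolipoprotein genes (one row per gene) against the normal livers under 4 scalings of the arrays, filled where the adjusted p was under 0.05 (limma); left, Fah off, and right, Fah p21 off, with separate axes. Apoc3 and Apoa5 are filled under all 4 scalings on both sides, Apoa1 is 0.03 and 0.04 after quantile normalization, Apob is 0.05 on the right there, and Apom is 0.11 on the left with a common 99th percentile.

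The calls of the apolipoproteins depended on the scaling. A common median or a common 99th percentile multiplies each array by 1 factor, so that bright genes shift alike by construction. With the arrays brought to a common 99th percentile of signal, chosen after these data were seen, 4 apolipoprotein genes passed as lower in Fah off (Apoa2, Apoc3, Apoa5 and Apoh) and 5 in Fah p21 off (the same and Apoe), and the median over all genes moved to 0.30 and 0.51. With a common median, 7 passed as lower in each, and the median over all genes moved to -0.06 and -0.14. Of 9195 genes, 3975 and 4390 passed at the common 99th percentile, and 3281 and 2580 with a common median. Among genes that passed, 54.5% in Fah off and 60.7% in Fah p21 off were higher as deposited, 49.5% and 50.2% after quantile normalization, 46.8% and 37.2% with a common median, and 80.2% and 88.7% at a common 99th percentile. Apoc3 was -0.49 and -0.44 at the common 99th percentile, and Apoa5 -0.46 and -0.72, each below a median over all genes that was above 0. The change of Lpl lay between 3.28 and 3.30 as deposited and after quantile normalization in Fah off, and between 3.36 and 3.50 in Fah p21 off. The plot of change against signal shows where the members lie.

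**Figure D3:**
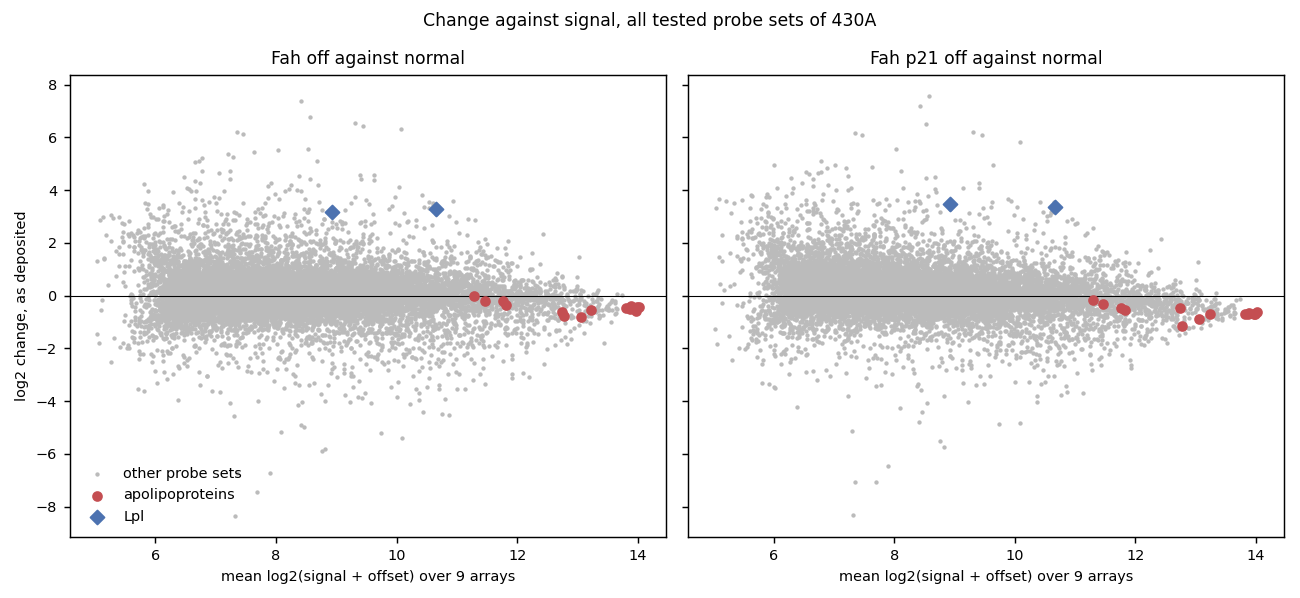
Log2 change against the normal livers, arrays as deposited (y axis), by mean log2 signal over 9 arrays (x axis), for the 15307 probe sets tested on 430A; red points are apolipoprotein probe sets, blue diamonds the Lpl probe sets and grey points all others. At the bright end most points lie below 0, and apolipoproteins are among them; the Lpl probe sets stand at 3.28 and 3.17 on the left and 3.36 and 3.46 on the right.

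Lpl was the only member that rose. Its representative probe set read 260.1 and 258.2 in the wildtype livers, 857.4 in the Fah knockout on NTBC, 645.4 in the Fah p21 knockout on NTBC, 5022, 4549 and 3673 in Fah off and 4130 and 5144 in Fah p21 off. The wildtype livers were lowest and nearly equal, the knockouts on NTBC lay between, and the livers off NTBC were all far above. Mean signals were 505 ± 297 (SD, n = 4) in the normal livers, 4415 ± 684 (SD, n = 3) in Fah off and 4637 ± 718 (SD, n = 2) in Fah p21 off. The log2 change was 3.28 ± 0.37 in Fah off (adjusted p = 6.0e-05), a 9.74-fold rise, and 3.36 ± 0.42 in Fah p21 off (adjusted p = 0.000205), a 10.3-fold rise. The second probe set gave 3.17 ± 0.65 and 3.46 ± 0.73 (adjusted p = 0.00287 and 0.0049).

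The step between wildtype and knockout livers on NTBC has 1 liver per condition and so no test. For Lpl, normal 3 was 1.69 and normal 4 was 1.28 above the wildtype mean on the log2 scale, and the second probe set gave 2.88 and 2.24 from signals of 62.6 and 34.3 in the wildtype livers and 408.1 and 258.5 in the knockouts. Of all probe sets tested, 0.614% were at least as far above the wildtype livers in both knockouts as the representative one of Lpl. The wildtype on NTBC differed from the wildtype on water by -0.01 with the representative probe set of Lpl and by -0.71 with the second, 1 liver against 1. Against the knockouts on NTBC alone Lpl still rose, by 2.54 in Fah off and 2.62 in Fah p21 off. Apob was also higher in both knockouts on NTBC than in the wildtype livers, by 0.61 and 0.59, and 6.48% of probe sets were as far up.

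Fah p21 off was set against Fah off to see what loss of p21 adds once the drug is gone. None of the 10 genes passed (limma), against 0.0435% of all genes (0.0326% higher and 0.0109% lower), and by representative probe sets 1 member, Apoa5, had an unadjusted p under 0.05; of the other 3 probe sets of Apoa1, 2 also did. Apoa5 was -0.39 ± 0.13 (adjusted p = 0.439; 95% interval -0.67 to -0.10). For Lpl the difference was 0.07 ± 0.45 with a 95% interval from -0.91 to 1.06. This SE draws on the spread within all 3 groups, also the normal one, where Lpl was higher in the knockouts on NTBC than in the wildtypes. With the normal livers split into wildtypes and knockouts, the difference was again 0.07, with an SE of 0.18. The width of about 2-fold either way thus depends on how the normal livers are grouped. The intervals of the other 8 members, by representative probe sets, reached 0, while those of the same 2 Apoa1 probe sets ran from -0.47 to -0.04 and from -0.48 to -0.03. Apoa1, Apoa5 and Apoe were lower in both Fah p21 off livers than in all 3 Fah off livers (3 of 10, where 10.9% of all genes lay wholly below and 18.2% wholly above). The upper end of the arrays differed here too: the 143 bright probe sets outside the members had a median of -0.14, against 0.06 over all probe sets. After quantile normalization Apoa1 was 0.014. The part of the upper end in these differences was not tested.

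The 430 2.0 arrays gave a separate look at Fah p21 off, with 1 normal liver and 1 residual degree of freedom; the p-values there take the lone normal liver to vary like the 2 Fah p21 off livers and hold no spread between control livers. Lpl read 2132 in the normal liver and 14159 and 10343 in the Fah p21 off livers. It rose by 2.50 ± 0.27 (adjusted p = 0.00196), and by 3.07 ± 0.26 with the second probe set (adjusted p = 0.0009). All 9 apolipoprotein genes read lower in both livers off NTBC than in the normal liver, by -0.11 for Apoa1 to -0.68 for Apoa5, and none passed; of all genes 37.6% lay wholly below the 1 normal liver and 45.4% wholly above it, and 14% passed, 9.11% higher and 4.91% lower. Apoa5 read 18747 in the normal liver and 10514 and 12982 off NTBC (-0.68 ± 0.24, adjusted p = 0.131), and passed after quantile normalization (-0.50). Apob read 16740, 16538 and 10583, and its second probe set 3444, 2735 and 1144. The signs of Apoa1 and Apoh turned after quantile normalization (0.02 and 0.01), and those of Apoa1, Apoa2 and Apoh at a common 99th percentile (0.12, 0.03 and 0.10).

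Other genes of lipoprotein metabolism were read from lists by role. Beside the counts of these lists and of the cell type markers stand the shares of all genes as deposited. They were 19.7% higher and 16.5% lower in Fah off, and 17.8% higher and 11.5% lower in Fah p21 off. Of 9 other apolipoprotein genes tested, 6 fell and 1 rose in Fah off, and 6 fell and none rose in Fah p21 off; after quantile normalization 4 fell and 1 rose in each. The largest falls were of Saa4 (-1.87 ± 0.17 and -1.91 ± 0.19), Apon (-1.30 ± 0.14 and -1.34 ± 0.16) and Apof (-1.23 ± 0.18 and -1.08 ± 0.20). Apoc2, the cofactor that the lipase needs, was the one that rose in Fah off, by 0.68 ± 0.14 (adjusted p = 0.00271). Apoc4, its neighbour on chromosome 7 beside Apoc1 and Apoe, fell by 0.92 ± 0.14 in Fah p21 off.

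Of 17 genes of lipoprotein assembly and secretion, 3 rose and 2 fell in Fah off, and 4 rose and 2 fell in Fah p21 off. These counts are near the shares of all genes, so they say little on this list as a whole. Mttp, which loads lipid onto ApoB, rose by 1.12 ± 0.12 in Fah off and 0.81 ± 0.14 in Fah p21 off, while Apob itself did not rise. Tm6sf2, needed for lipid loading of very low density lipoprotein, rose by 0.90 ± 0.23 and 0.76 ± 0.26. Plin2, a lipid droplet coat protein, rose by 0.86 ± 0.12 in Fah off, and Apobec1, which edits the Apob transcript, rose by 0.81 ± 0.26 in Fah p21 off. Cideb, which acts in lipoprotein lipidation, fell by 1.34 ± 0.12 and 1.42 ± 0.14. With a common median, 1 rose and 2 fell in Fah p21 off.

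Among 13 lipases and plasma remodelling genes other than Lpl, 4 rose and 5 fell in Fah off, and 3 rose and 4 fell in Fah p21 off. Pon1, an esterase of high density lipoprotein, fell by 2.40 ± 0.14 and 2.62 ± 0.16. Lmf1, the factor that folds the lipase in the endoplasmic reticulum, read 258.4 to 447.8 in the normal livers and 128 to 218.6 in Fah off, and fell by 1.14 ± 0.23 there. Lipa, the lysosomal acid lipase, rose by 1.13 ± 0.14 and 1.04 ± 0.16. Pnpla2, which starts triglyceride breakdown in droplets, rose by 1.15 ± 0.15 in Fah off. In Fah p21 off Lcat, which esterifies cholesterol on high density lipoprotein, fell by 1.34 ± 0.18 and Gpld1, a plasma phospholipase, by 1.13 ± 0.15. Angptl4, an inhibitor of lipoprotein lipase that was singled out after its values were seen, rose by 0.65 ± 0.18 in Fah off (adjusted p = 0.0166).

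Of 14 receptors and sterol transporters, 2 rose and 4 fell in Fah off, and 2 rose and 2 fell in Fah p21 off; at a common 99th percentile 4 rose and 1 fell, and 6 rose and none fell. Cd36, a fatty acid uptake receptor, read 187.7 to 448.9 in the normal livers, 2296 to 3078 in Fah off and 2719 to 3438 in Fah p21 off, without overlap. It rose by 3.41 ± 0.27 (adjusted p = 4.3e-06) and 3.58 ± 0.30 (adjusted p = 1.5e-05). Lrp1, a remnant receptor, fell by 1.26 ± 0.25 and 0.89 ± 0.29, and Scarb1, the receptor for high density lipoprotein, by 0.58 ± 0.15 and 0.88 ± 0.17. Lrpap1, a chaperone of Lrp1, fell by 0.55 ± 0.15 in Fah off, and Sorl1, a sorting receptor, rose by 0.58 ± 0.19 in Fah p21 off.

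Of 28 transcription factors known to act on apolipoprotein genes, 12 fell and 1 rose in each comparison with the normal livers, with a median of -0.48 and -0.51; at a common 99th percentile 6 and 4 fell and 3 rose in each. Rxra, the partner of many nuclear receptors, fell by 1.51 ± 0.20 and 1.47 ± 0.23, and Klf15 by 1.50 ± 0.19 and 1.50 ± 0.21. Srebf1, which drives fatty acid synthesis, fell by 1.29 ± 0.18 in Fah off, and Cebpa by 1.16 ± 0.13 in Fah p21 off. Pparg, a regulator of fat storage under which Lpl is a known target, was the one that rose, from 34.7 to 65.3 in the normal livers to 216.4 to 226.2 in Fah off and 168.4 to 188.2 in Fah p21 off (1.96 ± 0.20 and 1.66 ± 0.23). Of 17 targets of the PPAR receptors, 8 rose and 2 fell in Fah off and 7 rose and 3 fell in Fah p21 off. The largest changes were of Pdk4 (5.12 ± 0.19 and 4.50 ± 0.21), Fabp4 (4.58 ± 0.21 and 4.29 ± 0.23), Fgf21 (4.44 ± 0.50 and 3.77 ± 0.57) and Acot1 (3.50 ± 0.35 and 3.15 ± 0.40). No gene of these 6 lists passed between Fah p21 off and Fah off.

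Markers of cells known to make Lpl differed by list: some adipocyte and macrophage markers rose, and no muscle marker passed. Of 6 adipocyte markers tested, 4 rose in each comparison (Fabp4, Cidec, Cidea and Pparg). The sums of 8 genes were 410.9 to 490.3 (normal), 4213 to 4941 (Fah off) and 3464 to 3618 (Fah p21 off). Fabp4 and Cidec were the brightest of them off NTBC, at 2727 to 3256 and 835.1 to 1336 in Fah off. Retn and Plin4 overlapped the normal livers in Fah off, and Plin4 lay above them in Fah p21 off (92.9 to 135.3 against 56.7 to 83.6). Adipoq and Lep, also on this list, were dim in every liver, near the low end of the signals. Adipoq read 23.1 to 26.5, 14.4 to 38 and 17.8 to 22.5, and Lep 5.6 to 17, 5.8 to 13.2 and 8.4 to 9.2 in the 3 groups in the same order. Of 16 macrophage markers tested, 5 rose and none fell in Fah off, and 10 rose and none fell in Fah p21 off, with summed signals of 19 genes of 8037 to 14035, 12570 to 15208 and 16718 to 17881. The muscle list summed to 386.9 to 608.9, 285.6 to 374.3 and 421.9 to 476.4 over 10 genes, with none of 2 tested past the threshold. The macrophage sums of Fah off overlapped those of the normal livers.

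Markers of the fetal liver rose beside Lpl: 10 of 14 tested rose and none fell in each comparison, with a median log2 change of 2.23 and 2.30, and the summed signal of 16 genes was 1089 to 1879 in the normal livers, 13827 to 20423 in Fah off and 11438 to 14153 in Fah p21 off. Of 15 stellate cell and matrix markers, 3 rose in Fah off and 8 in Fah p21 off and none fell, with sums of 5384 to 6364, 7204 to 10078 and 10692 to 12598 in the 3 groups. Of 9 endothelial markers tested 1 rose in each comparison and none fell, with overlapping sums of 11 genes. Of 3 erythroid markers tested 1 rose and 2 fell in each. No marker of these lists was at 0 on any array. The part of these cells and of the fetal liver genes in the rise of Lpl was not tested.

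**Figure D4:**
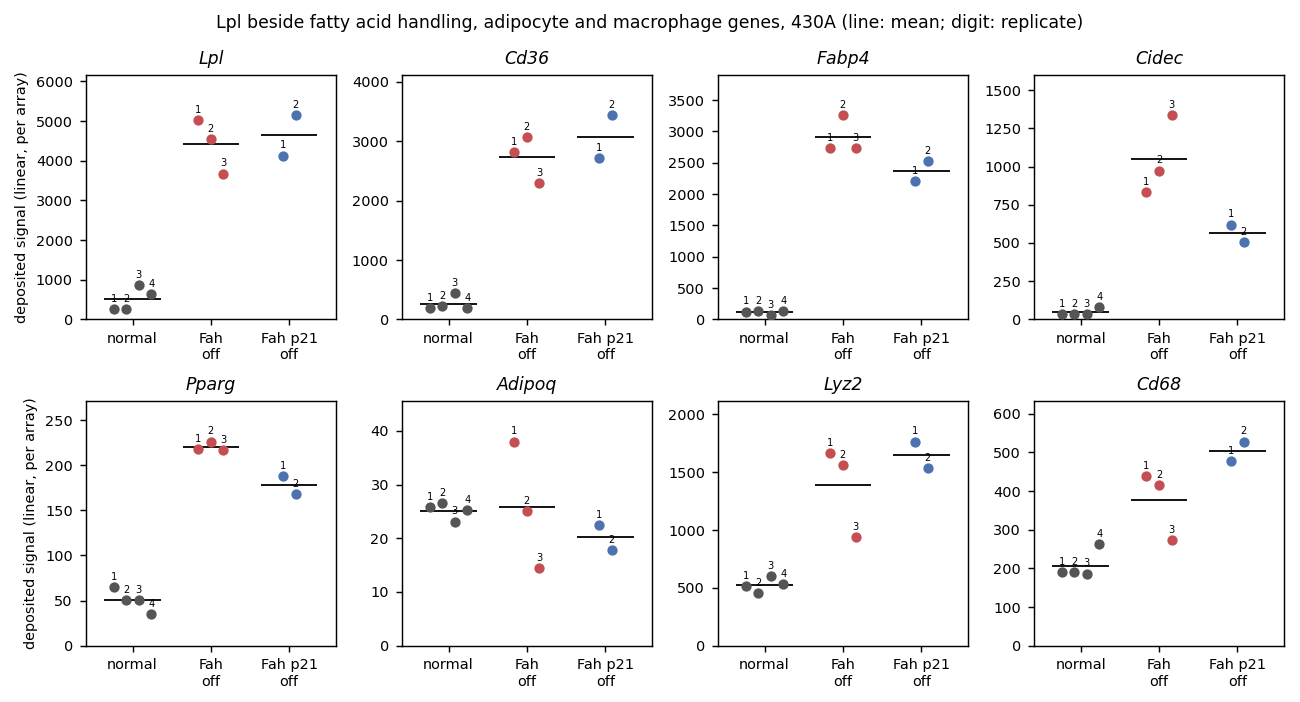
Deposited signal (linear scale) in the 9 livers on 430A for Lpl, the fatty acid receptor Cd36, genes known from fat cells (Fabp4, Cidec, Pparg and Adipoq) and macrophage genes (Lyz2 and Cd68); points are livers with their replicate number and lines are group means. Lpl, Cd36, Fabp4, Cidec and Pparg are higher in all 5 livers off NTBC than in all 4 normal livers, while Adipoq stays between 14.4 and 38.

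By likeness of log2 signal over the 9 arrays, among 9015 other named genes, Lpl was closest to Prdm4 (Pearson r 0.993), Chchd6 (0.993), Uap1l1 (0.992), Mt1 (0.992) and Tmc6 (0.992). The values of these 5 genes were lowest in the normal livers and did not overlap with those off NTBC; Mt1, a metallothionein, read 212 to 847.8 in the normal livers, 2829 to 5084 in Fah off and 5241 to 5366 in Fah p21 off. Apoa4 was closest to Mrpl20 (0.968), Hyou1 (0.942), Dnajb11 (0.916), Eef1b2 (0.912) and Slc35b1 (0.911). These 9 arrays share the same group structure, and the values are a description without a test.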

How the data were processed

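Liver RNA of 12 arrays was analysed, 9 of design 430A and 3 of 430 2.0. The authors deposited 1 signal for each probe set on each array, an intensity on a linear scale; per the submitters' processing notes, GCOS 1.4.0.036 and MAS5 were used. RNA came from 10 mg of tissue, per the labels' protocols. The number of arrays limits the precision, and p-values measure the spread between livers, whose litters and housing the labels do not state.

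The log2 of signal plus an offset was analysed. The offset was the 10th percentile of all signals in a table (9.9 and 3.8), so that changes of dim probe sets are understated. A probe set was tested if it reached the 40th percentile of the array it was read on for 2 or more arrays (15307 and 26925 probe sets). The 430A arrays shared 1 fit in limma 3.58.1 (R 4.3.3, lmFit and eBayes with intensity trend; 6 residual and 5.01 prior degrees of freedom), and the 430 2.0 arrays had another (1 and 6.04). All adjusted p-values are limma's, Benjamini-Hochberg over all probe sets tested, with a threshold of 0.05. Tables were scaled separately, so tests stayed within a table. Probe sets were named through the platform annotation held by GEO, and 20351 and 34741 probe sets were matched by Entrez identifier to the GRCm38.p6 gene table. One symbol was given for 20380 probe sets of 430A, several for 691 and none for 1555, and for 34945, 932 and 9160 of 430 2.0.

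A gene was read by the probe set with the highest mean log2 value over a table's arrays. On 430 2.0 the members kept the probe set chosen on 430A, which for Apoa1 and Apom was not the brightest there. The brightest Apoa1 probe set on 430 2.0 gave a log2 change of -0.18. All members were named, and from each pathway list up to 4 genes that passed with the largest changes in a comparison; cell type markers are given by counts and sums. Members and lists were chosen with earlier results of these data known. On simulated data of 15307 probe sets the fit recovered 61% of 2-fold and 94% of 4-fold changes in Fah off, 41% and 81% in Fah p21 off, and 48% and 86% between them. Identical signals made up at most 0.407% in the 36 pairs of 430A arrays. The alternatives tried are listed in the closing section. Figures were made with matplotlib 3.10.9 in Python 3.11.15.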

Additional observations from a re-analysis of the deposited data

How the results depend on the processing

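The rise of Lpl passed in both comparisons with the normal livers on 430A under every setting tried with at least 2 livers in each group; settings with 1 liver in a group (genotype-matched controls, an array of Fah p21 off left out, 430 2.0) are not counted here, since their lone liver is taken to vary like the others. Leaving out each array in turn it lay between 3.03 and 3.60 in Fah off and 3.11 and 3.67 in Fah p21 off. The settings were the filter, the offset, 3 other scalings (a common 99th percentile was chosen after seeing the data), limma's trend, the probe set rule, the control livers, the groups in the fit, a replicate block and each array left out. Of 750 values of single members under these settings, 696 counted as unchanged, 21 no longer passed, 9 newly passed and 24 changed sign. Unchanged means the same sign and call. On 430 2.0 with an array left out there is no call, and a value within the SD of the Fah p21 off livers was counted as unchanged. Between Fah p21 off and Fah off, taking only wildtype livers or only knockouts on NTBC as controls cannot move a change, so those values add little. It does move the SE, which for Lpl was 0.18 in place of 0.45. Quantile normalization left 2 members lower in Fah off and 2 in Fah p21 off. On 430 2.0, where none had passed as lower, 1 member (Apoa5) did after quantile normalization and 1 (Apoa5) at the common 99th percentile. It turned Apoa1 to 0.026 and 0.04, Apob in Fah p21 off to 0.048, Apoa1 and Apoh on 430 2.0 to 0.0203 and 0.00544, and, between Fah p21 off and Fah off, Apoa1 to 0.014, Apoa2 to 0.0452, Apoc3 to 0.0704 and Apoh to 0.0224. The common 99th percentile left 4 members lower in Fah off. It turned Apom in Fah off to 0.114, Apoa2 and Apoc3 between Fah p21 off and Fah off to 0.0025 and 0.0471, and Apoa1, Apoa2 and Apoh on 430 2.0 to 0.122, 0.0313 and 0.102. The common median turned Apob and Lpl between Fah p21 off and Fah off to -0.0118 and -0.0971. With genotype-matched controls, 1 array each and so without a spread between controls, 2 members had a positive change past the threshold in Fah off (Lpl and Apoa4, 0.669), Apoa2 between Fah p21 off and Fah off was 0.146, and Apoa1 in Fah off no longer passed (-0.39); Apoa4 against knockouts on NTBC was 0.14. Leaving out each array in turn, Apom in Fah off ranged from -0.412 to 0.00843, and between Fah p21 off and Fah off Apob ranged from -0.0953 to 0.33 and Lpl from -0.0841 to 0.232. Genes passed in Fah off numbered 3327, and 2018 with genotype-matched controls. In Fah p21 off they numbered 2701, and 1444 with genotype-matched controls, 4390 at a common 99th percentile and 1583 (without Fah p21 off 1) to 2760 with each array left out. Between Fah p21 off and Fah off 4 passed. There 0 passed with the filter at the 60th percentile, no offset, wildtype controls, knockouts on NTBC as controls, genotype-matched controls, the replicate block or only the compared groups in the fit, 1 with robust limma, 2 with a common median, 8 with the 25th percentile as offset or a common 99th percentile, and 0 to 50 (without Fah p21 off 1) with each array left out. On 430 2.0 1811 passed, 630 without a filter and 669 without the trend. With only the compared groups in the fit, Apom in Fah p21 off newly passed (-0.46). Apob in Fah off also no longer passed without a filter, without the trend, with only the compared groups in the fit, or with the replicate block (-0.52). No pairing by replicate number was seen: same-numbered livers correlated between -0.281 and 0.071 after removal of group means. With so few arrays per group, and normal livers of 4 conditions, these correlations cannot exclude a shared litter or batch. The block changed no other call of a member. The cause of these changes was not tested. On 430 2.0, leaving out an array left 1 against 1, so values there have no test. The signals at the upper end of the arrays differ by group and limit what can be said of bright probe sets.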
